A study of Mus musculus with 10 samples.

Results

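The genes described here are 32 RNA-binding proteins that choose splice sites, taken as a named list of neural splicing regulators outside the Rbfox family together with a few general and non-neural factors. They were picked by symbol and matched to Entrez gene IDs. All 32 had a row among the 30935 gene IDs of the count table, and 31 of them were among the 15288 genes with enough counts to test. Esrp2 was the gene left out. The counts came from RNA-seq of midbrain dissected from mouse embryos at embryonic day 14.5. The wild-type group (Rbfox1 +/+) held 5 libraries, numbered 1, 2, 4, 5 and 6. The deletion group (Rbfox1 ΔHAR.321/ΔHAR.321) held 5 libraries, numbered 2, 3, 4, 5 and 6, from embryos homozygous for the loss of HAR.321. HAR.321 is a human accelerated region of the Rbfox1 locus, that is, a sequence conserved among vertebrates that changed fast on the human lineage. The 10 samples are described as independent biological samples. The sources used here do not give strain background, sex, litter, dissection day or the number of founder lines, so a p-value below measures only the spread between these samples.

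Splicing regulators bind short motifs in a pre-messenger RNA and raise or lower the use of a nearby exon. Neurons use an unusually large set of them: Nova, Rbfox, Elavl and Celf proteins, the polypyrimidine tract binding proteins, the muscleblind-like proteins, the STAR proteins and the microexon activator Srrm4 each control partly overlapping sets of exons in transcripts for synapses, ion channels and the cytoskeleton. Many come as paralogues, with one member in progenitors or in all cells and another in neurons, and the change of paralogue is part of how a neuron matures. Rbfox proteins act on many of the same exons, which is the reason to read the other regulators in an Rbfox1 locus deletion. The counts are sums over whole genes, so they give how much RNA of each regulator was present and not how any exon was spliced.

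A library held 16246892 to 20255728 counts, with 18365 to 19452 genes detected. The deleted element has no row of its own in a gene table. Rbfox1 itself stood at 140.4 to 166 CPM (counts scaled to a common library size, with TMM factors) in the wild-type libraries and 147 to 181 CPM in the deletion libraries. Neuron markers summed to 9340 to 9738 CPM in wild-type and 8855 to 10200 CPM in deletion libraries, with Tubb3 the most abundant, and all 14 midbrain markers were detected (1461 to 1741 CPM and 1286 to 1787 CPM). Hindbrain Hox genes were near 0 (the 6 hindbrain markers summed to at most 2.53 CPM, with Hoxb2, Hoxa3 and Hoxb3 at 0), and the forebrain markers Dlx1 and Dlx2 had means under 1 CPM, while the most abundant forebrain marker, Lhx2, had a mean of 160.7 CPM. One library, deletion 4, stood apart in how its counts followed the GC content of annotated transcripts, as described below. The values of many genes are therefore given without it as well. Over all genes, the quasi-likelihood test of edgeR, at a Benjamini-Hochberg adjusted p under 0.05, called 9 genes, all lower in the deletion group, which is 0.0589% of those tested. The median log2 fold change of all genes tested was -0.00, and 50.7% of them were below 0.

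No splicing regulator passed that threshold. Of the 31 tested, 11 had a fold change above 0 and 20 below 0, with a median log2 fold change of -0.02 (deletion against wild-type, here and throughout). At an unadjusted p under 0.05 there were 2 (6.45% of the regulators, where 10.5% of all genes tested reached that level), Hnrnpa1 and Hnrnpc, both lower in the deletion group. The groups did not overlap for 1 gene, Hnrnpa1 (3.23%, against 2.49% of all genes tested). DESeq2 called 3.28% of the 8174 genes for which it gave an adjusted p, and 1 of the 28 regulators among them, again Hnrnpa1. The limma-voom test called none of the 31 and no gene at all, with 2 of the 31 and 1656 of all genes at an unadjusted p under 0.05. For 30 of the 31 the 95% interval of the fold change lay within a 1.5-fold change in either direction (0.585 on the log2 scale). The exception was Esrp1, which had few counts. Apart from Esrp1, the widest bound was 0.36, for Elavl2. In bulk tissue, fewer cells of a type and less RNA per cell cannot be told apart in any of these values.

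**Figure D1:**
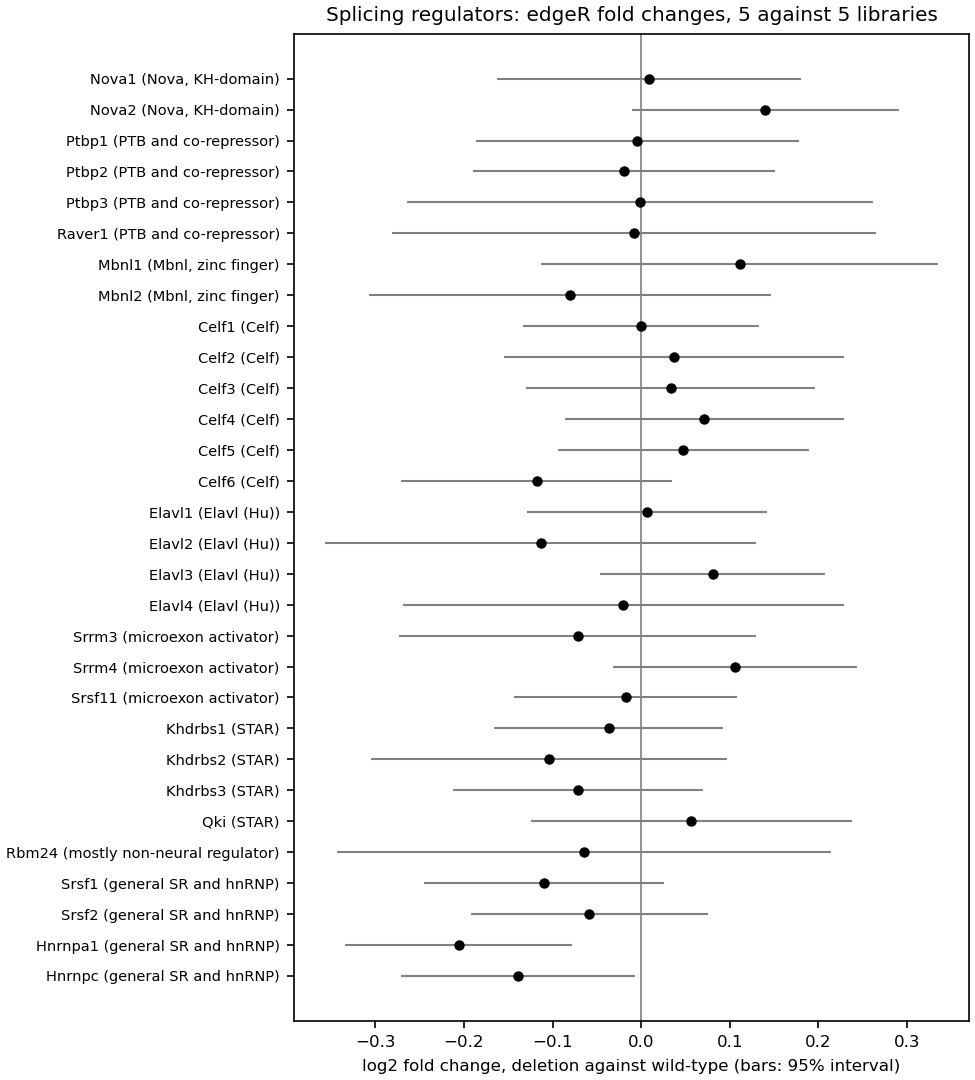
Log2 fold change (deletion against wild-type) of 30 splicing regulators on the horizontal axis, with points for the edgeR estimate from 5 against 5 libraries and bars for the 95% interval; genes are ordered by family. Only the bars of Hnrnpa1 and Hnrnpc miss 0; Esrp1 (-0.73, interval -1.63 to 0.16) lies outside the axis and Esrp2 was not tested, so neither is drawn.

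The polypyrimidine tract binding proteins repress exons by binding pyrimidine-rich stretches. Ptbp1 (Entrez 19205) does so in progenitors and most non-neural cells, Ptbp2 (Entrez 56195, also nPTB) takes over in newborn neurons, and Ptbp3 (Entrez 230257) is a further paralogue studied mainly in blood cells. Ptbp1 keeps Ptbp2 low by skipping its exon 10, which shifts the reading frame and sends the transcript to nonsense-mediated decay. That exon is shown because the exchange runs through it. It is 34 bases long and lies at chr3:119724612-119724645 on the minus strand of GRCm38. Of 13 annotated GENCODE M21 transcripts 3 hold it and 2 join its neighbours directly, and both of the latter are tagged as nonsense-mediated decay targets. Capitals mark exon 10, and the lower-case letters are the 30 bases of exon on either side.
Ptbp2 with exon 10: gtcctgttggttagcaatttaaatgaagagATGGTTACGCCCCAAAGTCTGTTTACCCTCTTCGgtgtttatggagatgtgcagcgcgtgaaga
Ptbp2 without exon 10: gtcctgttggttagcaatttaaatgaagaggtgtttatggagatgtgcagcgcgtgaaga
Counts per gene add transcripts of both forms, so the values below do not separate them.

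Libraries are listed in the order wild-type 1, 2, 4, 5 and 6, then deletion 2, 3, 4, 5 and 6. Ptbp2 stood at 413, 357, 465, 429 and 390.1 CPM in wild-type and 427, 399, 327, 436 and 438 CPM in deletion libraries. Ptbp1 stood at 87.5, 69.7, 79.9, 86.9 and 86.9 CPM and 82.9, 79.4, 99.6, 80.0 and 67.8 CPM. Deletion 4 held the lowest Ptbp2 and the highest Ptbp1 of all 10 libraries, and the groups overlapped for both genes. The log2 fold change was -0.02 (SE 0.08, 95% interval -0.19 to 0.15) for Ptbp2 and 0.00 (SE 0.09, -0.19 to 0.18) for Ptbp1. Ptbp3 had means of 56.9 ± 3.32 and 56.9 ± 12.6 CPM (SD, n = 5 in each group here and below), and deletion 4 was its lowest library at 37.1 CPM. Without deletion 4 the fold change was 0.05 for Ptbp2, -0.08 (SE 0.07) for Ptbp1 and 0.12 (SE 0.07, adjusted p = 0.452) for Ptbp3, against 0.00 with it for the last 2. Raver1 (Entrez 71766), a co-repressor that PTB proteins recruit, had means of 16.1 ± 1.86 and 16.1 ± 3.26 CPM, a fold change of -0.01 (SE 0.13).

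Levels of different genes were compared per kilobase of annotated exon (the union of a gene's exons). Ptbp2 made up 64.2% of the family's counts per kilobase in the wild-type group and 63.8% in deletion libraries, and was the highest of the 3 in every library. Ptbp1 made up 24.9 ± 1.71% and 25.3 ± 5.25%, and Ptbp3 10.9 ± 0.564% and 10.9 ± 2.03%. The log2 ratio of Ptbp2 to Ptbp1 was 1.29, 1.41, 1.59, 1.35 and 1.21 in wild-type and 1.41, 1.38, 0.76, 1.49 and 1.74 in deletion libraries. Deletion 4 alone lay below 1. The means differed by -0.01 (exact two-sided permutation test over the 252 assignments of the libraries, p = 0.960, adjusted p over the 7 family ratios = 0.960). Without deletion 4 the difference was 0.14 (exact p = 0.254), and with the trends of each library on length and GC content taken out it was 0.10 (exact p = 0.222).

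Nova1 (Entrez 664883) and Nova2 (Entrez 384569) are neuron-specific proteins with KH domains that bind YCAY clusters and set the splicing of transcripts for the synapse. Nova1 stood at 664, 674, 773, 582 and 601 CPM in wild-type and 668, 612, 581, 690.2 and 763 CPM in deletion libraries. The groups covered nearly the same range, and the fold change was 0.01 on the log2 scale (SE 0.08, interval -0.16 to 0.18). Nova2 stood at 244, 270.2, 206, 227 and 259.7 CPM and 258, 246, 294, 261 and 269.9 CPM. Each of the 5 deletion libraries was above the wild-type mean of 241 CPM, but 2 wild-type libraries reached into their range, and the fold change of 0.14 (SE 0.07) did not pass the test (adjusted p = 0.521). It was 0.09 without wild-type 4, its lowest library, and 0.02 with the trends on length and GC content removed. Per kilobase, Nova1 held 72.2 ± 3.59% of the pair in the wild-type group and 70.4 ± 2.92% in deletion libraries, more than Nova2 in each library. The log2 ratio of Nova2 to Nova1 ran from -1.85 to -1.15 and from -1.44 to -0.92, a difference of 0.13 (exact permutation p = 0.468, adjusted p = 0.944) and of 0.05 without deletion 4.

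Muscleblind-like proteins bind YGCY motifs and promote the adult forms of many exons. Mbnl1 (Entrez 56758) is the main form in muscle and Mbnl2 (Entrez 105559) in the adult brain. Both were low at this age: 1.75 ± 0.136 CPM per kilobase for Mbnl1 and 1.97 ± 0.0799 for Mbnl2 in the wild-type group, the 2 lowest levels of the list after Esrp1 and Esrp2. By the longest transcript the order changed, with Rbm24 at 3.79, Mbnl2 at 4.24, Raver1 at 4.65 and Mbnl1 at 5.80 CPM per kilobase. Mbnl1 stood at 34.9, 29.2, 33.9, 34.9 and 31.1 CPM in wild-type and 37.1, 39.1, 24.9, 36.4 and 39.7 CPM in deletion libraries. Deletion 4 was the lowest of all 10, while the other 4 deletion libraries were above each wild-type library. How many of all genes tested do the same without deletion 4 was not counted. The log2 fold change was 0.11 (SE 0.11, adjusted p = 0.783) with deletion 4 and 0.22 (SE 0.08, adjusted p = 0.168) without it. Mbnl2 stood at 24.1, 22.6, 23.5, 22.7 and 24.9 CPM and 24.5, 25.2, 16.5, 20.5 and 24.8 CPM. Here too deletion 4 was lowest, and the fold change was -0.08 (SE 0.11) with it and 0.01 (SE 0.09) without it.

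The balance of the 2 muscleblind genes gave the lowest p of the 7 family ratios. The log2 ratio of Mbnl2 to Mbnl1 was 0.11, 0.27, 0.11, 0.03 and 0.32 in wild-type and 0.04, 0.01, 0.05, -0.19 and -0.04 in deletion libraries. None of the deletion libraries reached the wild-type mean of 0.17 ± 0.12, and their own mean was -0.02 ± 0.10. The groups overlapped through wild-type 5 at 0.03, which lay under the 0.04 of deletion 2 and the 0.05 of deletion 4. The difference of -0.19 had an exact permutation p of 0.0238, with 0.00794 the smallest that this design allows, and did not pass adjustment over the 7 ratios (adjusted p = 0.167). Leaving out any one library gave differences of -0.23 to -0.15, and removing the trends on length and GC content gave -0.27. After that removal the wild-type libraries ran from 0.10 to 0.33. The deletion libraries ran from -0.29 in deletion 4 to 0.05 in deletion 2, so the groups no longer overlapped. That setting is an alternative and does not replace the test above. Which of the 2 genes was higher depended on the length used. With the union of exons Mbnl2 was higher in 8 of 10 libraries (52.9% of the pair in the wild-type group), and with the longest annotated transcript Mbnl1 was higher in 10 of 10. The difference between the groups does not depend on that choice, since a gene's length cancels between libraries.

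**Figure D2:**
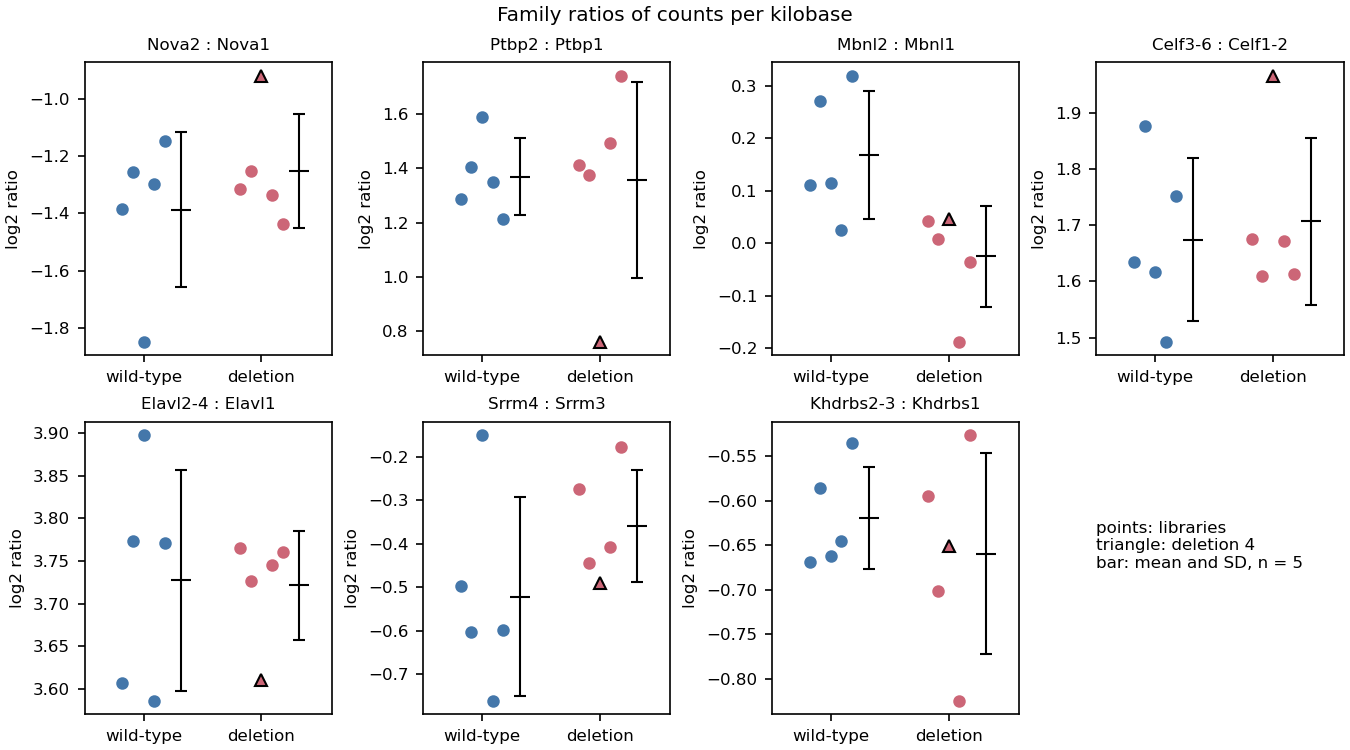
Log2 ratio of counts per kilobase between the paralogues named above each panel (vertical axes, 1 panel per family), for each wild-type and deletion library. Points are libraries, the triangle is deletion 4, and the black mark and bar are the mean and SD of 5. The Mbnl2 to Mbnl1 panel shows the deletion libraries between -0.19 and 0.05 and the wild-type libraries between 0.03 and 0.32, and deletion 4 lies far from the other deletion libraries in the Nova, Ptbp, Celf and Elavl panels.

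Celf proteins bind GU-rich sequences and often act against muscleblind proteins on the same exons. Celf1 (Entrez 13046) and Celf2 (Entrez 14007) are widely expressed, whereas Celf3 (Entrez 78784), Celf4 (Entrez 108013), Celf5 (Entrez 319586) and Celf6 (Entrez 76183) are largely neural. Celf4 was the highest of the 6 per kilobase in all 10 libraries, with 30.5 ± 1.15% of the family in wild-type and 31.3 ± 2.79% in deletion libraries. Celf3 followed at 20.2 ± 0.427% in the wild-type group, and Celf5 (17.9 ± 0.786%) and Celf1 (17.2 ± 1.55%) did not differ from each other beyond their spread. Celf2 (6.72 ± 0.358%) and Celf6 (7.52 ± 0.472%) were lowest, and with the longest transcript in place of all exons Celf2 moved up to 11.4%, above Celf1 at 10.7%.

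Between the genotypes, the fold changes of Celf1 (0.00, SE 0.06), Celf2 (0.04, SE 0.09), Celf3 (0.03, SE 0.08), Celf4 (0.07, SE 0.08) and Celf5 (0.05, SE 0.07) were within 1 SE of 0. Celf6 stood at 53.1, 64.1, 58.1, 56.1 and 55.5 CPM in wild-type and 52.2, 56.5, 49.5, 49.8 and 56.4 CPM in deletion libraries. Each deletion library lay under its wild-type mean of 57.4 CPM, 2 of them within the wild-type range, and the fold change of -0.12 (SE 0.07) did not pass the test (adjusted p = 0.619). Celf2 stood at 363, 372, 361, 379 and 355 CPM and 408, 392, 267, 392 and 420.0 CPM. Its lowest library was deletion 4, and the other 4 deletion libraries were above every wild-type library, a pattern not counted over all genes. Celf3 stood at 244, 248, 228, 215 and 229 CPM and 224, 222, 298, 235 and 212 CPM, with deletion 4 the highest of all. Without deletion 4 the fold change was 0.14 for Celf2 (SE 0.05, adjusted p = 0.162), 0.13 for Celf4 (SE 0.06, adjusted p = 0.277) and -0.06 for Celf3. The log2 ratio of Celf3 to Celf6 together over Celf1 and Celf2 was 1.67 ± 0.15 in wild-type and 1.71 ± 0.15 in deletion libraries, a difference of 0.03 (exact permutation p = 0.738, adjusted p = 0.960) and of -0.03 without deletion 4.

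Elavl (Hu) proteins bind AU-rich and U-rich RNA and act on splicing and on RNA stability. Elavl1 (Entrez 15568, HuR) is found in nearly all cells, and Elavl2 (Entrez 15569, HuB), Elavl3 (Entrez 15571, HuC) and Elavl4 (Entrez 15572, HuD) mark neurons. The paralogues are close in sequence, which bears on how reads can be told apart between them. The 90-base window of coding sequence in which Elavl3 and Elavl4 are most alike is shown for that reason, from the longest GENCODE M21 coding sequences (GRCm38; Elavl3 at chr9:22018506-22051598 and Elavl4 at chr4:110206335-110286493, both on the minus strand). Capitals mark the 6 bases that differ, and the other 84 are identical. The windows are coding bases 961 to 1050 of Elavl3 and 1015 to 1104 of Elavl4.
Elavl3: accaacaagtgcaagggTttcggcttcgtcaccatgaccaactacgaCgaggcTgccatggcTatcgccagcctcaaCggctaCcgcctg
Elavl4: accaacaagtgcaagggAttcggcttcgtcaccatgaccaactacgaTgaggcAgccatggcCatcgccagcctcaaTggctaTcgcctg
Neither gene shared a run of 50 coding bases with any other gene of the list, but Elavl3 shared one with 1 annotated gene outside it. Elsewhere among the regulators such runs were shared with other annotated genes by Ptbp1 (2 pseudogenes), Khdrbs1 (1 pseudogene) and Raver1 (1 gene), and by Hnrnpa1 and Hnrnpc as given below, so their counts could be split. The coding sequence held 58.6% G and C in Elavl3 and 51.1% in Elavl4.

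Elavl3 was the highest of the 4 per kilobase in each of the 10 libraries, with 42.6 ± 2.39% of the family in wild-type and 45.1 ± 4.50% in deletion libraries. Elavl1 was the lowest in each, at 7.04 ± 0.587% and 7.05 ± 0.296%. Elavl3 stood at 552, 617, 551, 547 and 596 CPM in wild-type and 595, 590.0, 589, 619.7 and 633 CPM in deletion libraries. All 5 deletion libraries exceeded the wild-type mean, 2 wild-type libraries lay among them, and the fold change of 0.08 (SE 0.06, adjusted p = 0.698) did not pass the test. It was 0.01 with the trends on length and GC content removed. Elavl4 stood at 299, 287, 319, 314 and 336 CPM and 342, 319.9, 200.5, 342 and 331 CPM. Elavl2 stood at 319.8, 306, 402, 322 and 345 CPM and 341, 317, 217, 335 and 357 CPM. In both genes deletion 4 was far below the other 9 libraries, which otherwise covered overlapping ranges. The fold change was -0.02 (SE 0.12) for Elavl4 and -0.11 (SE 0.11) for Elavl2, against 0.10 (SE 0.05, adjusted p = 0.383) and -0.00 without deletion 4. Elavl1 had a fold change of 0.01 (SE 0.07). The log2 ratio of the 3 neuronal genes to Elavl1 was 3.73 ± 0.13 in wild-type and 3.72 ± 0.06 in deletion libraries (difference -0.01, exact permutation p = 0.849, adjusted p = 0.960, and 0.02 without deletion 4).

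**Figure D3:**
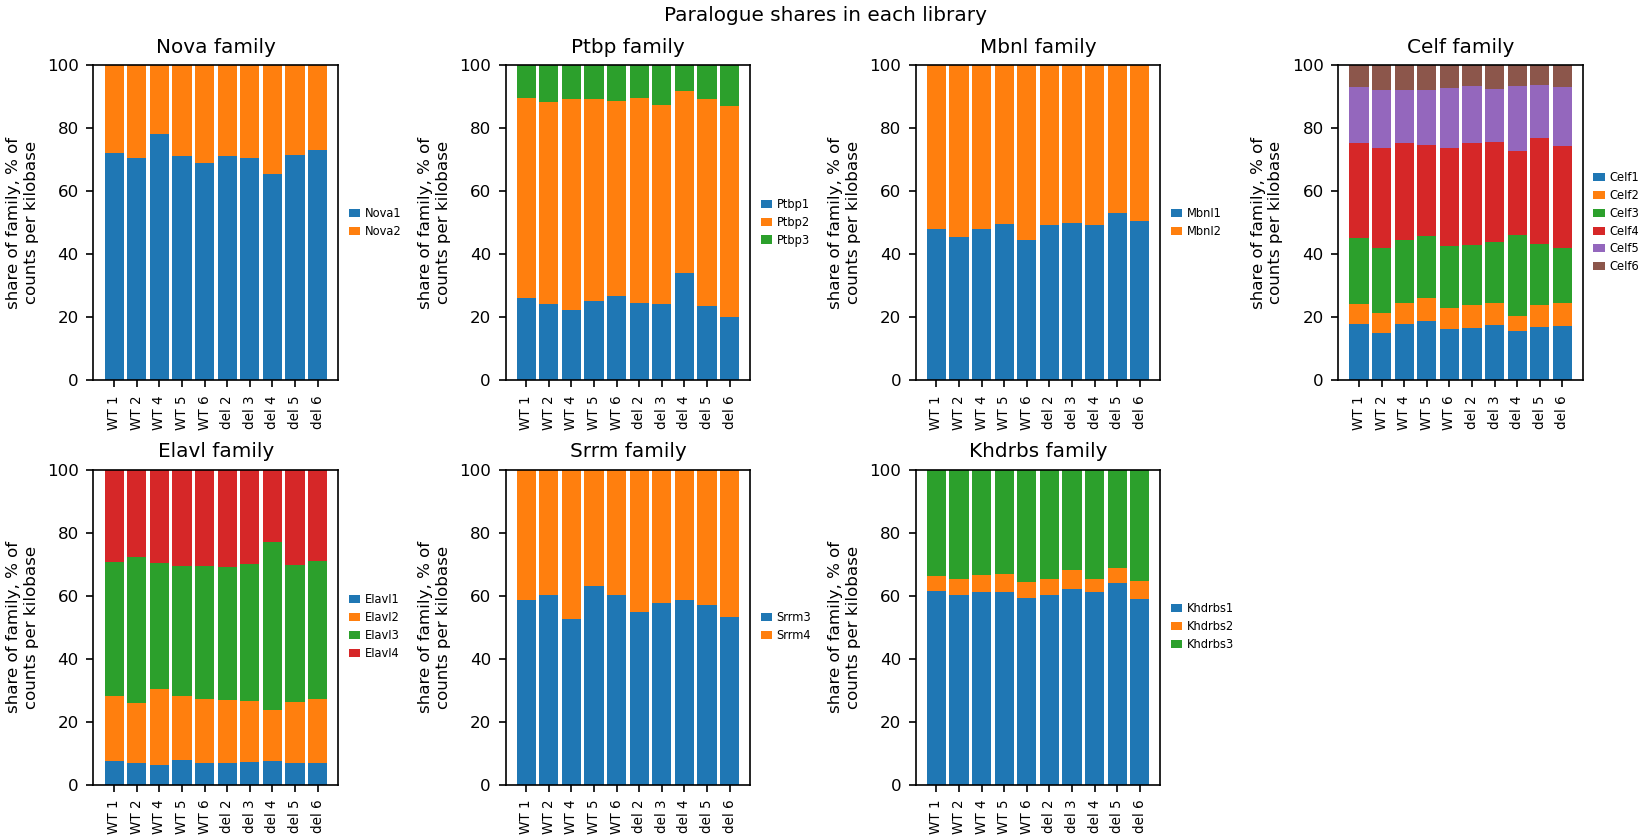
Share of each paralogue in its family's counts per kilobase of exon (vertical axis, percent) in the 5 wild-type (WT) and 5 deletion (del) libraries, 1 panel per family and 1 colour per gene. The leading gene was the same in each library for Nova1, Ptbp2, Celf4, Elavl3, Srrm3 and Khdrbs1, while Mbnl1 and Mbnl2 were nearly level; deletion 4 had the largest Ptbp1 share, 34.1%.

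Microexons are exons of a few codons that neurons include under the control of Srrm4 (Entrez 68955, nSR100) and its relative Srrm3 (Entrez 58212), with Srsf11 (Entrez 69207) as a partner at the splice site. Srrm4 stood at 93.3, 93.3, 80.7, 81.1 and 84.1 CPM in wild-type and 89.9, 88.6, 92.5, 92.9 and 101 CPM in deletion libraries. Each deletion library was above the wild-type mean of 86.5 CPM, the ranges overlapped, and the fold change was 0.11 (SE 0.07, adjusted p = 0.621) and -0.00 with the trends on length and GC content removed. Srrm3 stood at 97.2, 105, 66.1, 102 and 94.0 CPM and 80.3, 89.0, 96.0, 91.0 and 84.5 CPM. Wild-type 4 was the lowest of its 10 values, and the fold change was -0.07 (SE 0.10) with that library and -0.17 without it. Srsf11 ranged over 271 to 288 CPM and 247 to 298 CPM (fold change -0.02, SE 0.06). Per kilobase, Srrm3 made up 58.9 ± 3.86% of the pair in wild-type and 56.2 ± 2.22% in deletion libraries.

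Srrm4 over Srrm3, as a log2 ratio, was -0.50, -0.60, -0.15, -0.76 and -0.60 in wild-type and -0.27, -0.44, -0.49, -0.41 and -0.18 in deletion libraries. All 5 deletion libraries were above the wild-type mean of -0.52, and wild-type 4 was the highest of all. The difference of 0.16 had an exact permutation p of 0.190 (adjusted p = 0.667). Without wild-type 4, the library most opposed to it, the difference was 0.26. Its exact permutation p of 0.0159 was not adjusted and is the smallest that the remaining libraries allow. Since that library was singled out by its own ratio, this p is no support for a difference. With all libraries and the trends on length and GC content removed, the difference was 0.08.

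STAR proteins bind UAA-rich motifs. Khdrbs1 (Entrez 20218, Sam68) is widespread, Khdrbs2 (Entrez 170771, SLM1) and Khdrbs3 (Entrez 13992, SLM2) act in neurons on neurexin exons, and Qki (Entrez 19317, quaking) works in progenitors and glia. Khdrbs1 was the highest of the first 3 per kilobase in every library (60.6 ± 0.951% in wild-type, 61.2 ± 1.85% in deletion libraries) and Khdrbs2 the lowest (5.28% and 5.09%). Fold changes were -0.04 (SE 0.06) for Khdrbs1, -0.10 (SE 0.10) for Khdrbs2 and -0.07 (SE 0.07) for Khdrbs3. Khdrbs2 was lowest in deletion 4, at 31.4 CPM, and without that library the values were 0.00, -0.01 and -0.04. Khdrbs2 and Khdrbs3 over Khdrbs1, as a log2 ratio, differed by -0.04 between the groups (exact permutation p = 0.540, adjusted p = 0.944). Qki stood at 249.8, 239, 267, 256 and 239.8 CPM in wild-type and 297, 267, 192, 277 and 269 CPM in deletion libraries. Its lowest library was again deletion 4, while the other 4 deletion libraries were above every wild-type library, a pattern not counted over all genes. The closest values were 267.1 CPM in deletion 3 and 266.7 CPM in wild-type 4. The fold change was 0.06 (SE 0.09) with deletion 4 and 0.15 (SE 0.05, adjusted p = 0.147) without it.

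Deletion 4 was the lowest of its group for 18 of the 30 regulators examined (all but Esrp1 and Esrp2), and wild-type 2 was the lowest of its own for 15. The departures of deletion 4 followed base composition. Measured against the mean of the other 4 deletion libraries, it was lower for 13 of the 14 regulators whose longest transcript held under 45% G and C, with a median of -0.45 on the log2 scale. It was higher for 5 of the 6 regulators with at least 55%, with a median of 0.20. Elavl4 (38.9% G and C) was lower by 0.73 and Ptbp3 (38.9%) by 0.73, whereas Celf3 (56.2%) was higher by 0.42 and Ptbp1 (53.7%) by 0.37. Across the 30 regulators the Pearson correlation of the departure with GC content was 0.754 and Spearman's rho 0.778. These are points of 1 library that share its depth and preparation, given as a description. The 10656 genes with high enough counts followed the same line in that library, with a slope of 0.307 log2 units per 10 points of GC (r 0.657). In the other 9 libraries, each against the mean of the other 4 of its group, the slope ran from -0.115 to 0.124. Over the 30 regulators the Pearson correlation was nearly as large in wild-type 4 (-0.744) and wild-type 2 (0.692). Deletion 4 thus stood apart by its slope more than by that correlation. After each library's trend on length and GC content was taken out, the correlation with GC content over the 30 regulators was -0.03 in deletion 4. The removal is aimed at that relation, and departures of other kinds stayed: the median absolute departure of deletion 4 went from 0.222 to 0.172, and in the other 9 libraries it was 0.0564 to 0.0988 after removal. Elavl4 was then lower by 0.32 in place of 0.73, Mbnl2 by 0.48 in place of 0.52 and Celf6 by 0.33 in place of 0.12.

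**Figure D4:**
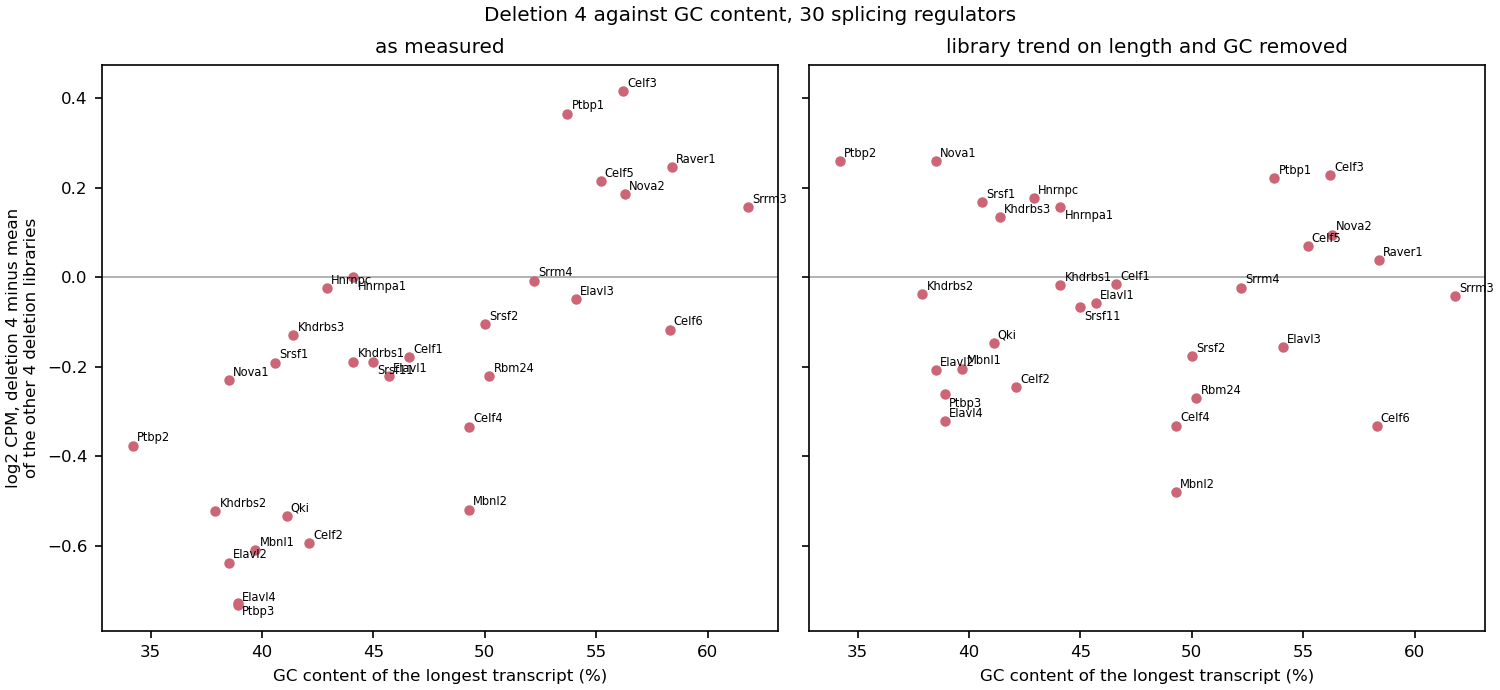
Log2 CPM of deletion 4 minus the mean of the other 4 deletion libraries (vertical axis) against the GC content of the longest annotated transcript (horizontal axis, percent) for 30 splicing regulators, 1 labelled point each; left as measured, right after each library's trend on length and GC content was removed. The left panel climbs from -0.73 at Elavl4 to 0.42 at Celf3 (r 0.754), and in the right panel r is -0.03.

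The same library set much of the spread behind the tests. The median SD of log2 CPM over the 30 regulators was 0.0922 in the wild-type group, 0.144 in the deletion group and 0.0759 in the deletion group without deletion 4. Without that library edgeR called 357 of 15433 genes, or 2.31%, and 15.8% reached an unadjusted p under 0.05. No regulator was called there either. At an unadjusted p under 0.05 there were 6 of 31 regulators: Mbnl1 (0.22), Celf2 (0.14), Celf4 (0.13) and Qki (0.15) above 0, and Hnrnpa1 (-0.20, adjusted p = 0.0586) and Hnrnpc (-0.13, adjusted p = 0.263) below 0. Red blood cell markers summed to 2845 CPM in deletion 4, the highest of the 10 libraries (1602 to 2428 CPM in the others), and its neuron markers to 8855 CPM, the lowest. Their part in these values was not tested.

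Fold change also followed transcript length. Across the 30 regulators the correlation of the log2 fold change with log2 transcript length was 0.538 (Spearman's rho 0.582), and over 10656 genes rho was 0.459. A library's log2 CPM, taken against the mean of all 10, had a slope per log2 unit of length. This slope ran from -0.06 to -0.01 in the wild-type libraries and was -0.05 in deletion 4. In the other deletion libraries it ran from 0.03 in deletion 3 to 0.10 in deletion 6. Without deletion 4 the groups therefore did not overlap in this slope. The fold changes given without deletion 4 were not corrected for length. With the length trend removed, Nova1, Celf2 and Qki moved from 0.01, 0.04 and 0.06 to -0.07, -0.05 and -0.03. The part of length in the differences between the groups was not tested beyond that removal.

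The 2 regulators with the lowest p, Hnrnpa1 and Hnrnpc, are general splicing factors. SR proteins bind exonic enhancers and favour inclusion, and heterogeneous nuclear ribonucleoproteins (hnRNPs) coat pre-messenger RNA and often oppose them. Hnrnpa1 (Entrez 15382), which competes with Srsf1 for splice sites, had the highest level per kilobase of the list, 302 CPM per kilobase in the wild-type group, followed by Hnrnpc (Entrez 15381), which packages nascent RNA, at 88.5 ± 6.43. Srsf1 (Entrez 110809) at 86.5 ± 5.18 and Srsf2 (Entrez 20382, SC35) at 78.2 ± 4.87 stood in the same band as Elavl3 at 83.1 ± 4.63 and Nova1 at 75.3 ± 8.55, and among these 5 genes below Hnrnpa1 each pair of neighbours in level had overlapping ranges of mean ± SD. With the longest transcript Hnrnpa1 stayed first (305 CPM per kilobase) and Celf4 came next (138).

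The counts of Hnrnpa1 came to 995, 908, 981, 958 and 919 CPM in wild-type and 755, 829, 824, 864 and 855 CPM in deletion libraries. Every deletion library lay under every wild-type library. The means were 952 ± 37.9 and 825 ± 42.6 CPM. The log2 fold change was -0.21 with an SE of 0.06 (95% interval -0.33 to -0.08), and the edgeR adjusted p was 0.180 (unadjusted p = 0.00301). DESeq2 called it (fold change -0.21, adjusted p = 0.0127). Over the other alternatives and left-out libraries the adjusted p ran from 0.0586 to 0.745 and the fold change from -0.23 to -0.16, below 0 in all. Its coding sequence shares runs of 50 bases with 18 annotated pseudogenes, and how reads that fit several places were counted is not given in the sources used here, so its level is uncertain to that extent.

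Hnrnpc stood at 368, 342, 412, 398 and 394 CPM in wild-type and 363, 347, 343, 359 and 325 CPM in deletion libraries. All 5 deletion libraries were under the wild-type mean of 383 CPM, but wild-type 2 lay within their range, and the fold change of -0.14 (SE 0.06) had an edgeR adjusted p of 0.448. It was -0.07 with the trends on length and GC content removed, and Hnrnpc too shares 50-base runs with 2 pseudogenes. Srsf1 had means of 494 ± 29.6 and 458 ± 29.4 CPM, with 5 of 5 deletion libraries under the wild-type mean and a fold change of -0.11 (SE 0.07, edgeR adjusted p = 0.600). Srsf2 had a fold change of -0.06 (SE 0.06). Markers of cycling cells summed to 208 to 417 CPM in wild-type and 231 to 383 CPM in deletion libraries, and progenitor markers to 1271 to 1577 CPM and 1172 to 1627 CPM. Their part in the Hnrnpa1 and Hnrnpc values was not tested.

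**Figure D5:**
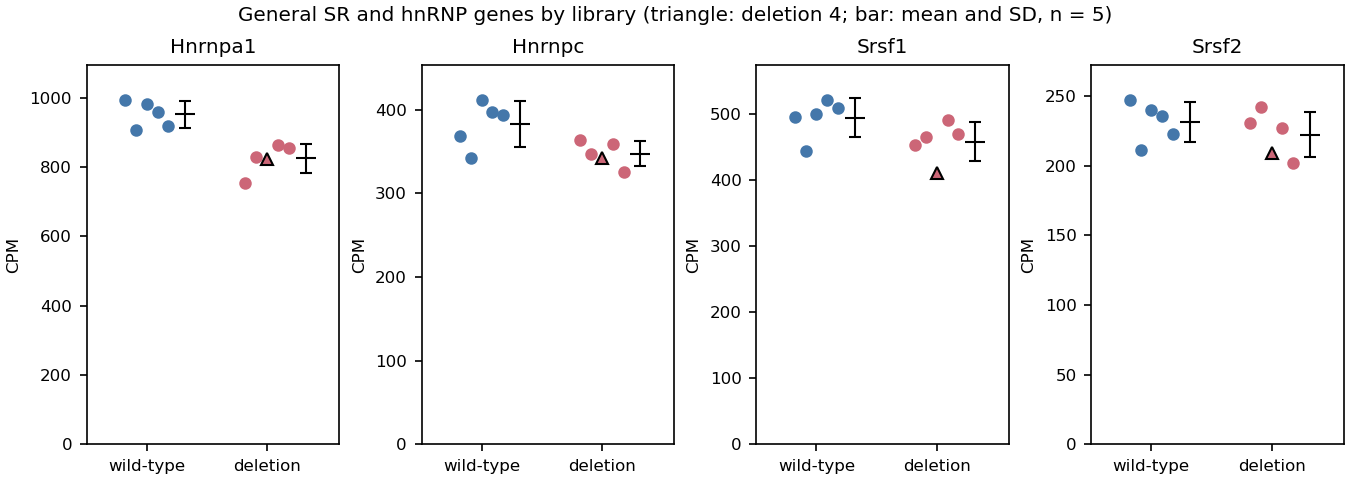
CPM (vertical axes, from 0) of Hnrnpa1, Hnrnpc, Srsf1 and Srsf2 in the wild-type and deletion libraries; points are libraries, the triangle is deletion 4, and the black mark and bar are the mean and SD of 5. For Hnrnpa1 the deletion libraries (755 to 864 CPM) lie under all wild-type libraries (908 to 995 CPM), and the other 3 genes overlap.

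Other genes of the same machinery were read from lists that also cover the rest of the SR and hnRNP families, SR kinases, further RNA-binding regulators and known targets. Of 24 other hnRNP and related genes 5 had fold changes above 0 and 19 below 0, with a median of -0.10, and 7 were at an unadjusted p under 0.05 (29.2%, against 10.5% of all genes), all below 0. None was called by edgeR. Hnrnpab had means of 503 ± 19.6 and 432 ± 15.3 CPM (fold change -0.22, SE 0.06, edgeR adjusted p = 0.130). Hnrnpa0 had means of 862 ± 41.2 and 738 ± 62.5 CPM (-0.22, SE 0.07, edgeR adjusted p = 0.188). For both genes the groups did not overlap (8.33% of the list, against 2.49% of all genes tested), and DESeq2, which called 3.28% of all genes with an adjusted p, called both (adjusted p = 0.00262 and 0.0379). Without deletion 4, edgeR called Hnrnpab (adjusted p = 0.0316) and Pcbp4 (adjusted p = 0.0328). The members of the list with the lowest p above 0 were Pcbp3 (0.14, SE 0.11) and Pcbp2 (0.09, SE 0.07). The split was 4 above and 20 below 0 under upper-quartile scaling, 5 and 19 with the trends on length and GC content removed, and 7 and 17 without deletion 4.

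Of 10 other SR and Tra2 genes, 1 was above 0 and 9 below 0, with a median of -0.07. The median was -0.04 without deletion 4 and with the trends on length and GC content removed, and -0.05 without wild-type 5. The genes with the lowest p were Srsf5 (-0.20, SE 0.07, adjusted p = 0.255) and Srsf9 (-0.11, SE 0.08) below 0 and Srsf12 (0.17, SE 0.10) above. SR protein kinases switch SR proteins on by phosphorylation. Of 7, 6 could be tested, and all 6 had fold changes above 0 (5 of 6 under each other scaling, 4 with the trends on length and GC content removed, and 3 without deletion 5), from 0.00 to 0.09, with Clk4 at 0.09 (SE 0.07) and Clk3 at 0.06 (SE 0.06), and none passed. Among 13 tested of 14 further RNA-binding regulators, 3 were above and 10 below 0, and the split was 6 and 7 without deletion 4, where the median went from -0.07 to -0.01. Rbm5, which promotes exon skipping in apoptosis genes, stood at 297.7 to 320.9 CPM in wild-type and 324 to 352 CPM in deletion libraries. Its groups did not overlap (7.69% of its list, against 2.49% of all genes tested), and its fold change of 0.10 (SE 0.06) did not pass (adjusted p = 0.569). Rbm38 (0.18), Tial1 (-0.11) and Msi2 (-0.13) were the other genes with the lowest p in their direction.

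Some targets of these regulators are known by name. Ptbp1 and Ptbp2 hold down Dlg4, the gene for the synaptic scaffold PSD-95, by exon skipping and decay, and Srrm4 turns the splicing of Rest, the repressor of neural genes, towards a truncated form. Dlg4 stood at 302 ± 25.6 and 317 ± 29.9 CPM (fold change 0.07, SE 0.07). Rest stood at 20.1 ± 2.07 and 18.9 ± 2.60 CPM (-0.09, SE 0.11). Flna (0.03, SE 0.09) and Bak1 (-0.01, SE 0.11), which carry exons that Ptbp1 represses, had intervals that included 0, and none of the 4 was called.

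Rbm24 (Entrez 666794) directs muscle and heart splicing, and Esrp1 (Entrez 207920) and Esrp2 (Entrez 77411) define epithelial splicing. Rbm24 was detected at 9.30 to 14.2 CPM in wild-type and 9.73 to 12.7 CPM in deletion libraries (fold change -0.06, SE 0.13), while the 8 muscle markers summed to at most 6.46 CPM with Myog at 0 counts throughout. Esrp1 had 47, 10, 19, 22 and 12 counts in the wild-type and 7, 8, 19, 21 and 11 counts in the deletion libraries. Wild-type 1 alone held more than 22. The fold change was -0.73 (SE 0.43, adjusted p = 0.596) with that library and -0.28 without it. Esrp2 had 0 counts in every wild-type library and 3 and 1 counts in deletion 3 and 4, with 0 in the others. The 8 epithelial markers summed to 3.14 to 4.11 CPM in wild-type and 2.18 to 3.63 CPM in deletion libraries, with Krt5 and Krt14 at 0 and Epcam the most abundant. The highest of these sums was that of wild-type 1, and its part in the Esrp1 value was not tested.

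Paralogue use was also set against the mix of neurons and progenitors. As a measure of that mix, the log2 ratio of summed neuron markers to summed progenitor and cycling markers ran from 2.25 in wild-type 5 to 2.71 in wild-type 2, and from 2.29 in deletion 2 to 2.86 in deletion 6. With all 10 libraries the Ptbp2 to Ptbp1 ratio had the largest correlation with it, Pearson's r 0.544 (permutation p = 0.114) and Spearman's rho 0.576 (permutation p = 0.0887), and neither passed adjustment over the 7 ratios (adjusted p = 0.770 and 0.621). Without deletion 6 and wild-type 2, the libraries farthest from the median, r was 0.30, and without deletion 4 alone it was 0.641. The value therefore depends on the libraries included. The ratios in all these correlations kept the trends on length and GC content. With those trends removed, the Ptbp2 to Ptbp1 ratio of deletion 4 was 1.445 in place of 0.76. The part of the trends in r was not tested. The ratios of the other families had r from -0.169 for Nova to 0.404 for Elavl, with -0.05 for Mbnl. Without deletion 6 and wild-type 2, Elavl stood at 0.49 and Khdrbs went from 0.263 to -0.599, both larger in size than the 0.30 of Ptbp. So which family came first depended on the libraries included. Leaving out deletion 4 took Celf from 0.132 to 0.409, while the other families apart from Ptbp ran from -0.0597 to 0.352. Each group alone has too few libraries for a correlation of its own.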

How the data were processed

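RNA-seq counts per gene were analysed for 5 wild-type and 5 deletion libraries. The authors deposited 1 table of whole-number counts per Entrez gene ID, made with HISAT2 and featureCounts on mm39, per the submitters' processing notes. RNA came from a Direct-zol kit, per the labels' protocols. Tool versions, gene annotation, strand and the handling of reads with several matches were not stated there. Without strand, overlapping genes cannot be separated.

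Symbols came from the RefSeq table for GRCm38.p6 (30648 of 30935 IDs; the 287 others held 0.0116% of counts), with Qki matched as a synonym. Lengths, GC content and sequences came from GENCODE M21 (GRCm38). As a check for duplicates, libraries of 1 group differed by a chi-square of at least 5.81 per degree of freedom in every pair. No library was therefore dropped as a copy, and all 10 were kept. The pairs with deletion 4 had the highest values, 20.58 to 33.06, and the check does not measure quality.

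The gene-wise test was edgeR 4.0.16 under R 4.3.3 (filterByExpr, TMM, robust quasi-likelihood F test, group only, two-sided, Benjamini-Hochberg over all 15288 genes, threshold 0.05). The SE is the log2 fold change divided by the square root of F. Family ratios used exact two-sided permutation tests over 252 assignments, and correlations used 100000 permutations. Trends on length and GC content were splines with 4 degrees of freedom, fitted on genes above a mean log2 CPM of 3 and used as offsets. Alternatives were other scalings and filters, DESeq2 1.42.0, limma-voom (limma 3.58.1), a replicate block, trend removal, other lengths and leaving out each library. The unblocked fit on the 8 libraries of the block was chosen after seeing the data. The gene-wise test was first run on simulated counts with known changes in 200 genes. Where the true change was 1.25-fold, the test found 37.3% of the changed genes. It found 85.1% at 1.5-fold and 98.5% at 2-fold. Among the genes called in that run, 6.96% carried no change, which is more than the threshold of 0.05 aims for. The lack of a call therefore does not exclude a change as small as 1.25-fold.

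The regulators, the lists and the markers were chosen with earlier results of these data known. All 32 regulators are named, and from each further list the genes called or else the 2 with the lowest p in each direction.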

Additional observations from a re-analysis of the deposited data

Results flagged for a closer look

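In groups of 5 libraries, a value was marked when its gap to the nearest other library took more than 0.71 of the group's whole range. This was examined for 78 groups, namely the regulators' CPM and the family ratios in each genotype. In a single group of normally spread values, chance alone marks about 1 in 20. The rule marked 10, of which 9 were deletion 4. The groups share the same libraries and the ratios are built from the same genes. The marks are therefore not independent, and their count cannot be set against that rate.

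Deletion 4 was the low library for Mbnl1 at 24.9 CPM (nearest 36.4), Celf2 at 266.6 CPM (nearest 392), Elavl1 at 126.2 CPM (nearest 143), Elavl2 at 216.7 CPM (nearest 317), Elavl4 at 200.5 CPM (nearest 319.9) and Qki at 191.6 CPM (nearest 267). It was the high library for Celf3 at 297.7 CPM (nearest 235). In the same library the log2 ratio of Celf3 to Celf6 over Celf1 and Celf2 was 1.97, with the next at 1.68, and that of Elavl2 to Elavl4 over Elavl1 was 3.61, with the next at 3.73.

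Wild-type 4 was the low library for Srrm3, at 66.1 CPM against 94.0 CPM in the nearest wild-type library. Srrm3 has the highest GC content of the 30 regulators (61.8%), and over those regulators the departures of wild-type 4 from its group had a Pearson correlation of -0.744 with GC content. With the trends on length and GC content removed, its log2 ratio of Srrm4 to Srrm3 was -0.12. The other wild-type libraries then ran from -0.75 to -0.47. The part of GC content in the Srrm3 value was not tested.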

How the results depend on the processing

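Over 619 alternative values for the 31 regulators, 557 kept the sign of the reported fold change, 12 regulators kept it throughout, and 1 value was called, Hnrnpa1 under DESeq2, which makes 1 regulator called there and 0 elsewhere. The count of all genes called was 9 as reported, 15 with upper-quartile factors, 69 with no filter, 268 with DESeq2, 17 with trends on length and GC content removed, and 0 with limma-voom or with the length trend removed. It ranged from 0 to 357 when single libraries were left out (357 without deletion 4, 88 without wild-type 2). The replicate block on the 4 shared numbers called 0 genes, as did the same 8 libraries unblocked. Same-numbered libraries had correlations of -0.08, -0.13, -0.06 and 0.12 in their deviations from the group means. Pairs with different numbers ran from -0.28 to 0.29. These values cannot tell whether a shared number marks a litter, a dissection day or nothing. The block gave -0.22 for the Mbnl ratio (exact p = 0.125, the smallest that 4 pairs allow). With trends on length and GC content removed the ratio differences were 0.10 for Ptbp, 0.0273 for Elavl and 0.0122 for Khdrbs. Leaving out single libraries gave -0.11 to 0.14 for Ptbp, -0.0322 to 0.0833 for Celf, -0.0410 to 0.0369 for Elavl, 0.10 to 0.26 for Srrm and -0.0735 to 0.00111 for Khdrbs. The causes were not tested. Esrp1 and Esrp2 had too few counts for a precise value; for the other regulators the spread of 5 libraries a group sets the precision.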
